A study of Macaca mulatta with 43 samples.

Results

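The enzymes that carry glucose to lactate were followed in the prefrontal cortex of rhesus macaques that had drunk ethanol for a year. From the platform's probe table, every probeset whose only gene symbol was HK1, GPI, PFKM, ALDOC, TPI1, GAPDH, PGK1, ENO2, LDHA or LDHB was taken, and the array's own control probesets were left out. This gave 14 probesets of 7 of the 10 genes, out of 23815 probesets of 13705 genes tested. PFKM, PGK1 and LDHB had no probeset with a single symbol in that table and were not analysed here. All 14 probesets passed the filter on dim values.

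The animals were adult male macaques housed singly. Ethanol intake in the 32 drinkers was established by schedule-induced polydipsia, in which liquid is taken between spaced food pellets. For 1 year after that, water and ethanol at 4% (w/v) stood open to them for 22 h of each day. The 11 controls had water and received maltose dextran each day, set to the calories of a drinker. RNA of Brodmann areas 24, 25 and 32 (anterior cingulate and subgenual cortex) was pooled within each animal and hybridized to 1 array. Cohort 4 held 11 drinkers and no control, cohort 5 held 8 drinkers and 5 controls, cohort 7a held 8 and 4, and cohort 7b held 5 and 2. Cohorts 4 and 5 were extracted with one kit and processed together, and cohorts 7a and 7b with another kit in a separate group. Values are RMA (robust multi-array average) values in log2 units, so that a difference of 1 is a doubling of signal.

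Glycolysis splits glucose into pyruvate in the cytosol and yields ATP and NADH, and lactate dehydrogenase turns pyruvate into lactate while restoring NAD+. Cortex depends on glucose as its main fuel, and neurons and astrocytes divide the pathway between them in part through different isozymes. Hexokinase 1, which binds to the outer mitochondrial membrane, traps glucose in the cell as glucose 6-phosphate. GPI converts it to fructose 6-phosphate, aldolase C (the brain isozyme, rich in astrocytes) splits the sugar, and TPI1 interconverts the resulting trioses. GAPDH makes NADH, ENO2 is the neuronal enolase, and LDHA is the lactate dehydrogenase subunit that favors lactate formation. Since ethanol oxidation uses NAD+ as well, the pathway shares a cofactor with ethanol metabolism.

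Where a gene had several probesets, they are numbered here from the highest mean value over the 43 arrays to the lowest. HK1-1 to HK1-3 are MmuSTS.3054.1.S1_at, MmugDNA.16459.1.S1_at and MmuSTS.342.1.S1_s_at, and GPI-1 and GPI-2 are MmugDNA.15667.1.S1_at and MmugDNA.37076.1.S1_at. ALDOC-1 is MmuSTS.2081.1.S1_at and TPI1-2 is MmugDNA.1092.1.S1_at. HK1-4, GPI-3, ALDOC-2 and TPI1-1 are each the gene's single probeset whose identifier opens with Mmu and a point. GAPDH, ENO2 and LDHA each had 1 probeset, MmugDNA.34587.1.S1_s_at, MmugDNA.3712.1.S1_at and MmugDNA.32307.1.S1_at. Probesets ending in _s_at (HK1-3, TPI1-1 and GAPDH) can bind several transcripts, and GAPDH, TPI1 and LDHA have many near-copies in primate genomes, so their signal may be shared. Values of different probesets are not levels that can be set against each other, because each probe binds with its own strength. Single animals are called by the number in their labels.

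Within cohorts, drinkers had lower LDHA signal and higher GPI-1 signal than controls, and HK1 moved in both directions, depending on the probeset. The rise of GPI-1 came mostly from cohort 7b, which has 2 controls (0.51, against 0.08 in cohort 7a and 0.00 in cohort 5). Of the 14 probesets, 2 rose and 5 fell in a linear model with cohort as a block (limma, Benjamini-Hochberg adjusted p under 0.05 over all 23815). Over all tested probesets, 11.8% rose and 21.4% fell in the same fit, so calls were common throughout the array. The rises were HK1-1 and GPI-1, and the falls LDHA, HK1-2, HK1-3, HK1-4 and ALDOC-2. Taking the brightest probeset of each gene, 3 of 7 genes passed (HK1, GPI and LDHA), and with the median over a gene's probesets GPI did not pass (0.18, adjusted p = 0.0792) and ENO2 did (-0.14, adjusted p = 0.0498). The median difference over the 14 probesets was -0.08, against -0.04 over all tested. In brain tissue, fewer cells of a type and less RNA per cell cannot be told apart. With each array centred on its median, 4 probesets rose and 2 fell, and the share of rises among all calls of the array went from 35.5% to 51.9%, so the balance of rises and falls depended on the scaling.

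Without regard to cohort, only HK1-4 passed (log2 difference -0.36, SE 0.10, adjusted p = 0.00989), where 16% of all tested probesets did. The study's methods also name treatment as the only factor. However, the study describes batch adjustment of its RMA values and a threshold of 0.01. The fit here used unadjusted values, a threshold of 0.05 and another set of probesets, so it does not repeat the study's own test. LDHA was at -0.15 (SE 0.05, adjusted p = 0.0512). The comparisons within and across cohorts use the same animals and are not separate lines of evidence. The cohorts with controls were unlike each other. In cohort 5 none of the 14 passed, and 0% of all tested probesets did (limma, 0 of 23815, with 723 at an unadjusted p under 0.05, none of them a member). In cohort 7a 1 member probeset rose and 3 fell, against 10.6% and 20.1% of all tested. In cohort 7b 4 rose and 4 fell, against 14% and 26%. Cohort 7b has only 2 controls, and centring each array on its median moved the median difference of all tested probesets there from -0.06 to 0.04. With that centring, the members called in cohort 7a were 2 rises and 2 falls, and those of cohort 7b were 5 rises and 3 falls. The whole array shifted toward rises as well. Its share of rises among all calls went from 34.673% to 55.027% in cohort 7a, where 6535 probesets were called with centring. In cohort 7b it went from 34.951% to 50.225%, with 9539 called. The centred member counts are to be read against these shares.

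**Figure D1:**
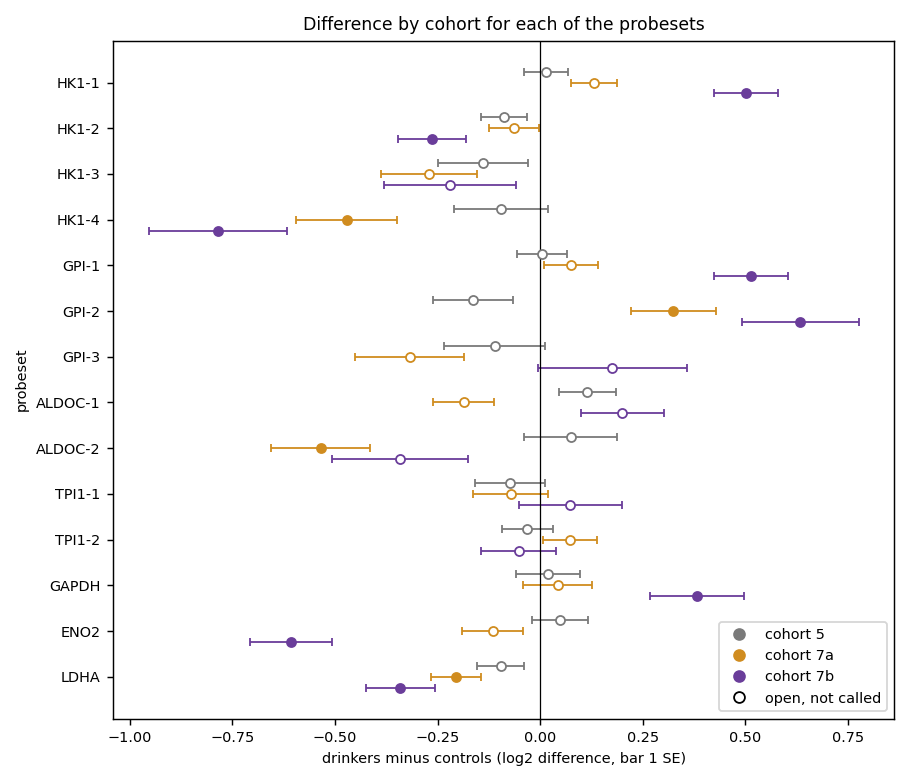
Log2 difference between drinkers and controls (x axis, points, with bars of 1 SE) for each of the 14 probesets (y axis) in cohorts 5, 7a and 7b, filled where the adjusted p was under 0.05. No point of cohort 5 is filled, and the widest spread of directions is in cohort 7b, from -0.79 for HK1-4 to 0.63 for GPI-2.

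LDHA was lower in drinkers in both late cohorts. In cohort 7b its values were 11.51, 11.70, 11.72, 11.84 and 11.88 in drinkers and 12.05 and 12.09 in controls. In cohort 7a the 8 drinkers ran from 11.61 through a median of 11.71 to 11.83, and the 4 controls measured 11.87, 11.89, 11.94 and 11.98. Drinkers and controls did not overlap in either cohort. In cohort 5 the drinkers ran from 11.86 (median 11.97) to 12.15 and the controls read 12.03, 12.06, 12.07, 12.09 and 12.20, so these groups overlapped. Over all cohorts LDHA fell by 0.19 log2 units within cohorts (SE 0.04, adjusted p = 0.000496), which is a ratio of 0.879. The fall was 0.21 in cohort 7a (-0.21, SE 0.06, adjusted p = 0.00940) and 0.34 in cohort 7b (-0.34, SE 0.08, adjusted p = 0.00103), and the value in cohort 5 was -0.10 (SE 0.06, adjusted p = 1.00). Drinkers were lower in 6 of the 7 processing batches that held both groups. These batches mix cohorts, since the early ones also hold cohort 4 drinkers beside cohort 5 controls and batch 7 sets 3 drinkers of cohort 7a against control 37 of cohort 7b, so differences within a batch are partly differences between cohorts. The call within cohorts remained in each of 25 alternative fits (difference -0.25 to -0.13, adjusted p 0.000273 to 0.0241). The call in cohort 7a was lost with each array centred on its median (-0.14, adjusted p = 0.0815), and that in cohort 7b when only the arrays of that cohort were fitted (adjusted p = 0.0686). Cohort 4, which has no controls, had LDHA between 11.89 and 12.17.

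**Figure D2:**
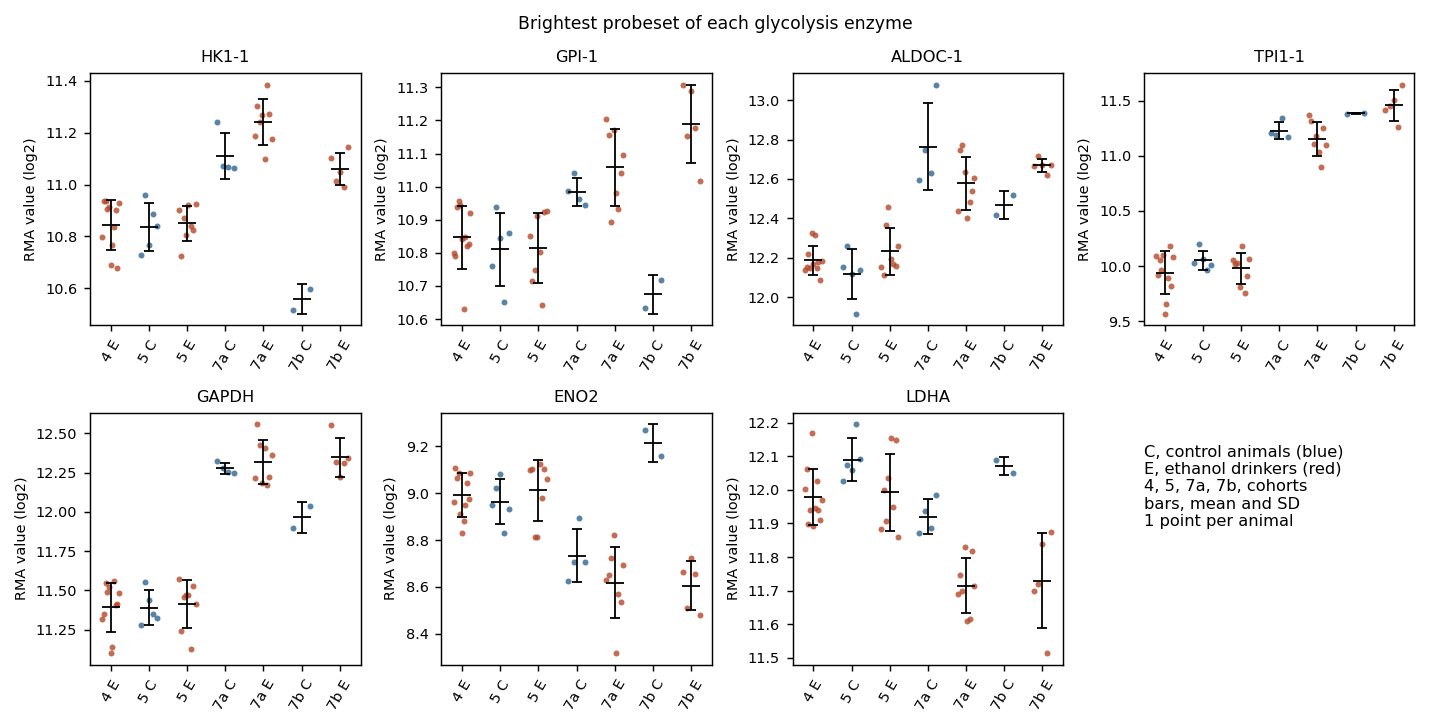
RMA values (y axis, log2) of the brightest probeset of each of the 7 genes, 1 point per animal, by cohort and treatment (x axis, C control, E ethanol), with mean and SD. LDHA is lower in drinkers than in every control of the same cohort in cohorts 7a and 7b, and TPI1-1 and GAPDH step up from cohorts 4 and 5 to cohorts 7a and 7b.

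The 4 probesets of HK1, the main hexokinase of brain, went opposite ways. HK1-1, the brightest, read 10.52 and 10.60 in the controls of cohort 7b and 10.99, 11.01, 11.05, 11.10 and 11.14 in its drinkers. These groups did not overlap, while in cohort 7a the controls at 11.06, 11.07, 11.07 and 11.24 lay within or just under the drinkers, from 11.10 (median 11.25) to 11.39. In cohort 5 the controls ran from 10.73 to 10.96 and the drinkers from 10.72 to 10.92. The 2 controls of cohort 7b were lower than every other array of the series, of which the lowest was at 10.68 in cohort 4. HK1-1 rose by 0.15 within cohorts (SE 0.04, adjusted p = 0.00643) and by 0.50 in cohort 7b (SE 0.08, adjusted p = 1.56e-06), and was at 0.13 in cohort 7a (SE 0.06, adjusted p = 0.0768). HK1-4, the dimmest, did the reverse. Its values in cohort 7b were 7.67 and 7.87 in controls and 6.63, 6.70, 7.03, 7.11 and 7.44 in drinkers, with no overlap. In cohort 7a controls stood at 7.38, 7.55, 7.58 and 7.78 and drinkers between 6.81 and 7.41 (median 7.18), so that these groups overlapped at their edge. HK1-4 fell by 0.37 within cohorts (SE 0.08, adjusted p = 0.000815), by 0.47 in cohort 7a (SE 0.12, adjusted p = 0.00317) and by 0.79 in cohort 7b (SE 0.17, adjusted p = 0.000199).

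The middle probesets of HK1 sided with HK1-4. HK1-2 fell by 0.11 within cohorts (SE 0.04, adjusted p = 0.0205) and HK1-3 by 0.20 (SE 0.07, adjusted p = 0.0237). Both calls were lost with each array centred on its median (HK1-2 -0.07, adjusted p = 0.153, and HK1-3 -0.16, adjusted p = 0.0629) and without control 37 of cohort 7b (adjusted p = 0.0703 and 0.0610). HK1-2 also lost its call without control 38 (adjusted p = 0.0511), and HK1-3 without control 25 of cohort 7a (adjusted p = 0.0649). In the fit of cohorts 7a and 7b alone neither passed (adjusted p = 0.130 for HK1-2 and 0.0540 for HK1-3). In cohort 7b HK1-2 fell by 0.26 (SE 0.08, adjusted p = 0.00947) in the model over all 43 arrays, and this call was lost without control 37 (adjusted p = 0.121), with centring (adjusted p = 0.104) and when only the arrays of that cohort were fitted (SE 0.13, adjusted p = 0.176). Drinkers were lower than controls in all 7 processing batches for HK1-2 and HK1-4, in 6 for HK1-3, and higher in 6 for HK1-1, over the same mixed batches. The difference between HK1-1 and the mean of the other HK1 probesets on the same array is free of any shift that the whole gene or array shares. It was 1.43 ± 0.09 in controls of cohort 7b (SD, n = 2) and 2.36 ± 0.15 in drinkers (SD, n = 5), 2.03 ± 0.11 in controls of cohort 7a (n = 4) and 2.43 ± 0.16 in drinkers (n = 8), and 1.96 ± 0.08 in controls of cohort 5 (n = 5) and 2.08 ± 0.12 in drinkers (n = 8). This contrast was chosen after the values were seen, so the permutation p computed for it is not used as support and its values stand as a description. With the median of the 4 probesets standing for the gene, HK1 fell by 0.16 within cohorts (SE 0.04, adjusted p = 0.00422), where HK1-1 alone rose. No direction can therefore be given for HK1 as a gene. Which part of the transcript each probeset covers was not analysed here.

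**Figure D3:**
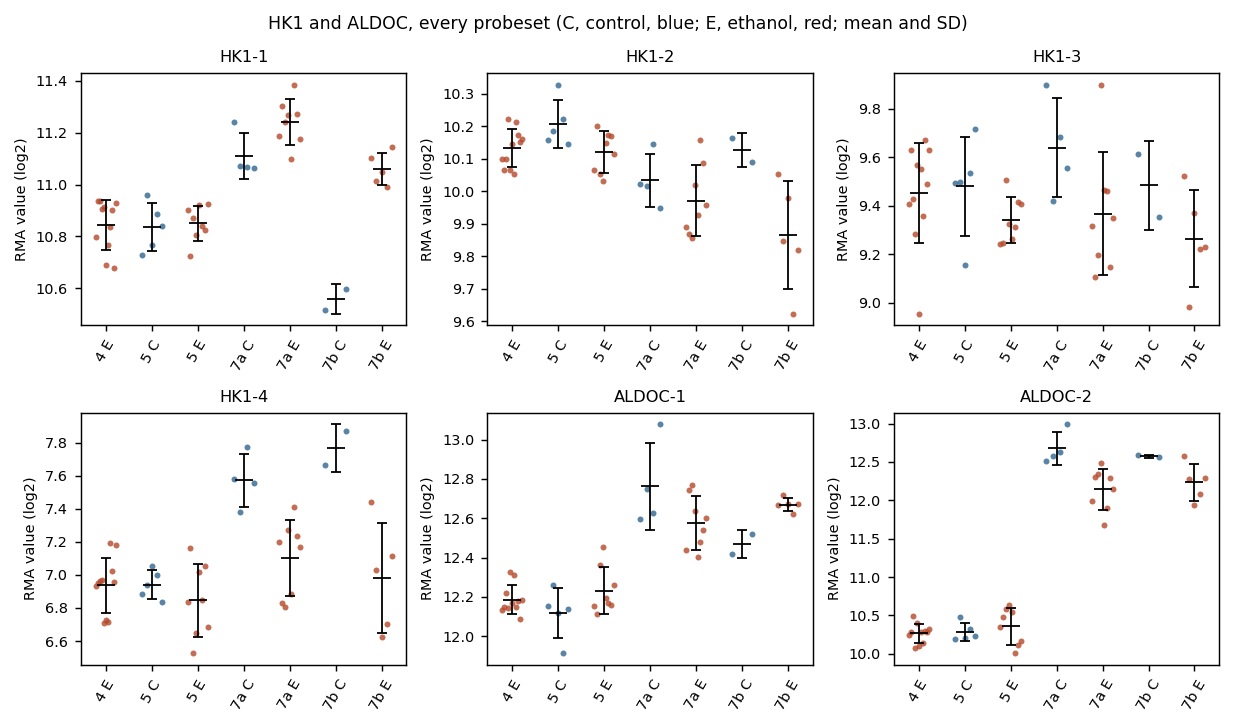
RMA values (y axis, log2) of the 4 HK1 and the 2 ALDOC probesets, 1 point per animal, by cohort and treatment (x axis, C control, E ethanol), with mean and SD. In cohort 7b HK1-1 is higher and HK1-4 lower in every drinker than in the 2 controls, and ALDOC-2 lies about 2 log2 units higher in cohorts 7a and 7b than in cohorts 4 and 5.

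GPI, the isomerase that follows hexokinase, was higher in drinkers of cohort 7b. GPI-1 read 10.63 and 10.72 in the controls of that cohort and 11.02, 11.15, 11.18, 11.29 and 11.31 in its drinkers, without overlap. In cohort 7a controls were at 10.94, 10.96, 10.99 and 11.04 and drinkers between 10.89 and 11.20 (median 11.07), which overlapped. GPI-1 rose by 0.51 in cohort 7b (SE 0.09, adjusted p = 1.15e-05) and by 0.13 within cohorts (SE 0.05, adjusted p = 0.0355), and was at 0.08 in cohort 7a (SE 0.07, adjusted p = 0.402) and 0.00 in cohort 5 (SE 0.06). The rise within cohorts was lost without control 37 of cohort 7b (0.09, adjusted p = 0.154), without control 38 (0.10, adjusted p = 0.124) and without control 15 of cohort 5 (0.12, adjusted p = 0.0567).

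GPI-2 rose in both late cohorts. In cohort 7b it read 9.56 and 9.59 in controls and 9.87, 10.14, 10.26, 10.36 and 10.44 in drinkers, a rise of 0.63 (SE 0.14, adjusted p = 0.000378). In cohort 7a controls read 9.57, 9.79, 9.80 and 10.12 and drinkers ran from 9.93 (median 10.17) to 10.38, a rise of 0.32 (SE 0.10, adjusted p = 0.0157) that was lost without control 28 (0.24, adjusted p = 0.118). The difference in cohort 5 was -0.16 (SE 0.10, adjusted p = 1.00), and within cohorts GPI-2 did not pass (0.18, SE 0.08, adjusted p = 0.0806). It passed with each array centred on its median (0.22, adjusted p = 0.0379) and without control 12, 13 or 16 of cohort 5 (0.20 to 0.21, adjusted p 0.0375 to 0.0469). In the fit of cohorts 7a and 7b alone it rose by 0.43 (SE 0.09, adjusted p = 0.00105). GPI-3, the dimmest, had differences of -0.11, -0.32 and 0.18 in cohorts 5, 7a and 7b, none of which passed.

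The 2 probesets of aldolase C had the same sign in cohort 7a and opposite signs in cohort 7b. ALDOC-2 in cohort 7a read 12.51, 12.58, 12.63 and 12.99 in controls and ran from 11.68 (median 12.22) to 12.49 in drinkers, with no overlap and a fall of 0.53 (SE 0.12, adjusted p = 0.000774). In cohort 7b its controls read 12.56 and 12.59 and its drinkers 11.94, 12.08, 12.28, 12.29 and 12.58, which overlapped (-0.34, SE 0.16, adjusted p = 0.0973). Within cohorts ALDOC-2 fell by 0.23 (SE 0.08, adjusted p = 0.0268), and this call was lost with processing batch besides cohort in the model (-0.17, adjusted p = 0.137), with each array centred on its median (-0.19, adjusted p = 0.0542) and without control 27 or 28 of cohort 7a or control 37 or 38 of cohort 7b (-0.23 to -0.18, adjusted p 0.0526 to 0.0922). ALDOC-1 was at 0.02 within cohorts (SE 0.05, 95% interval -0.08 to 0.12), at -0.19 in cohort 7a (SE 0.07, adjusted p = 0.0527), the same sign as ALDOC-2 there, and at 0.20 in cohort 7b (SE 0.10, adjusted p = 0.116). In cohort 7a ALDOC-1 passed as lower with trend and robust moderation (adjusted p = 0.0404) and without control 15 of cohort 5 or control 25 or 27 of cohort 7a (adjusted p 0.0216 to 0.0460). In cohort 7b ALDOC-1 lay between 12.62 and 12.72 in drinkers and at 12.42 and 12.52 in controls, without overlap, and with each array centred on its median it passed there (0.30, adjusted p = 0.0138).

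TPI1, the triose isomerase, did not pass in any comparison. TPI1-1 differed by -0.04 within cohorts (SE 0.06, 95% interval -0.16 to 0.07) and TPI1-2 by 0.00 (SE 0.04, 95% interval -0.08 to 0.09). TPI1-1 in cohort 7b read 11.38 and 11.39 in controls and 11.27, 11.42, 11.45, 11.51 and 11.64 in drinkers, on both sides of the controls.

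GAPDH, often used as a reference gene, rose in cohort 7b. Its controls there read 11.90 and 12.04 and its drinkers 12.22, 12.31, 12.31, 12.34 and 12.55, without overlap, a rise of 0.38 (SE 0.11, adjusted p = 0.00658). Without control 37 the rise was 0.31 and did not pass (adjusted p = 0.123). In cohort 7a controls lay at 12.25, 12.25, 12.28 and 12.33 and drinkers from 12.17 to 12.56 (0.04, SE 0.08, adjusted p = 0.739), and in cohort 5 the difference was 0.02 (SE 0.08). Within cohorts GAPDH was at 0.10 (SE 0.05, adjusted p = 0.158), and it passed with each array centred on its median (0.14, adjusted p = 0.0474). The array also carries control probesets along the GAPDH transcript, left out of the 14. In cohort 7b the one near the 3′ end lay between 13.77 and 13.89 in drinkers and at 13.71 and 13.88 in controls, while the middle one lay between 13.16 and 13.45 in drinkers and at 13.05 and 13.08 in controls. The control probeset near the 5′ end lay between 12.415 and 13.18 in drinkers, on both sides of the controls at 12.74 and 12.75. So the readings of the same transcript differed in whether drinkers and controls overlapped.

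ENO2, the enolase of neurons, fell in cohort 7b. Its controls read 9.16 and 9.27 and its drinkers 8.48, 8.51, 8.66, 8.67 and 8.72, without overlap, a fall of 0.61 (SE 0.10, adjusted p = 4.51e-06). In cohort 7a controls read 8.63, 8.71, 8.71 and 8.90 and drinkers ran from 8.32 (median 8.64) to 8.82 (-0.12, SE 0.07, adjusted p = 0.239). In cohort 5 controls read 8.83, 8.93, 8.95, 9.02 and 9.08 and drinkers ran from 8.81 (median 9.08) to 9.13 (0.05, SE 0.07, adjusted p = 1.00). The controls of cohort 7b, at 9.16 and 9.27, were higher than all other 41 arrays. Within cohorts ENO2 was at -0.14 (SE 0.06, adjusted p = 0.0512) and just missed the threshold. It passed without control 12, 15 or 16 of cohort 5 or control 25 of cohort 7a (-0.17 to -0.16, adjusted p 0.0221 to 0.0414) and in the fit of cohorts 7a and 7b alone (-0.29, adjusted p = 0.00973). Of 10 neuron markers listed, only 4 were measured (SYT1, STMN2, TUBB3 and ELAVL4). These had no call within cohorts or in cohort 7b, with a median difference of -0.01 in cohort 7b. Markers of neuron classes did move in cohort 7b. Of 5 inhibitory neuron markers 3 fell (PVALB, VIP and NPY) and 1 rose (GAD2), with a median of -0.65, and of 5 excitatory markers 2 rose (CAMK2A and NRGN) and 2 fell (NEUROD6 and TBR1), with a median of 0.26. Their part in the fall of ENO2 was not tested.

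Drinkers and controls of cohort 5 overlapped for every one of the 14 probesets, where 0.168% of all tested did not overlap. Cohort 7a had 2 members without overlap, against 10.9% of all, and cohort 7b had 9, against 43.1%. With 2 controls against 5 drinkers, separation is frequent, and the count in cohort 7b is to be read against that share.

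Whether the difference between drinkers and controls itself differed between cohorts was tested as an interaction. Against cohort 5, the difference in cohort 7a was larger for GPI-2 (0.49, SE 0.14, adjusted p = 0.0170) and lower for ALDOC-1 (-0.30, SE 0.10, adjusted p = 0.0395) and ALDOC-2 (-0.61, SE 0.16, adjusted p = 0.0104), 3 of 14 where 14.3% of all tested probesets passed. Each of the 3 lost its call without control 28 of cohort 7a, and ALDOC-1 also without control 14, 15 or 16 of cohort 5 or control 26 of cohort 7a and with each array centred on its median. Against cohort 5, cohort 7b differed for 6 of 14, where 31.5% of all passed. These were HK1-1 (0.49, adjusted p = 9.03e-05), GPI-1 (0.51, adjusted p = 0.000323), GPI-2 (0.80, adjusted p = 0.000368), GAPDH (0.36, adjusted p = 0.0418), HK1-4 (-0.69, adjusted p = 0.00751) and ENO2 (-0.66, adjusted p = 4.95e-05). The call of HK1-4 was lost without control 38 (-0.59, adjusted p = 0.0795), and that of GAPDH without control 13 or 14 of cohort 5 or control 37 or 38 of cohort 7b (0.29 to 0.43, adjusted p 0.0580 to 0.234). For LDHA neither interaction passed (-0.11, adjusted p = 0.409 for cohort 7a and -0.24, adjusted p = 0.0623 for cohort 7b), so its fall is not shown to differ between cohorts. Without control 15 of cohort 5 the interaction of LDHA in cohort 7b passed (-0.27, adjusted p = 0.0429).

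Several members differed far more between the early and late processing groups than between treatments. ALDOC-2 was at 10.30 ± 0.17 in the 24 arrays of cohorts 4 and 5 and 12.33 ± 0.32 in the 19 arrays of cohorts 7a and 7b (SD). GPI-3 was at 6.74 ± 0.19 and 8.44 ± 0.27, TPI1-1 at 9.98 ± 0.16 and 11.27 ± 0.18, and GAPDH at 11.40 ± 0.14 and 12.28 ± 0.16. For these probesets 90.1% to 94.6% of the spread over the 43 arrays lay between the processing groups. For LDHA the share was 41.2%, with 12.01 ± 0.10 early and 11.80 ± 0.15 late, and for HK1-3 and TPI1-2 it was 0.0626% and 4.36%. The median share over the 14 probesets was 41.1%, against 23.2% over all tested. Extraction kit, processing group and cohort cannot be told apart here. This spread enters the comparison without a cohort term, where ALDOC-2 had an SE of 0.35, against 0.08 within cohorts.

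RNA integrity, as read from actin, moved with treatment in the same cohort as several calls. The array reads actin mRNA near its 3′ and 5′ ends, and broken transcripts raise the 3′ minus 5′ value. In cohort 7a this value was 1.26 ± 0.21 in drinkers (SD, n = 8) and 0.82 ± 0.06 in controls (SD, n = 4), and every drinker exceeded every control (difference 0.45, two-sided exact permutation p = 0.00202, the smallest that 8 against 4 allow, adjusted p = 0.00606 over 3 cohorts). In cohort 7b it was 1.10 ± 0.37 in drinkers (n = 5) and 0.78 ± 0.04 in controls (n = 2, exact permutation p = 0.286, adjusted p = 0.429), and in cohort 5 the difference was 0.04 (exact permutation p = 0.718). With this value as a covariate, 3 of the 14 probesets passed within cohorts, where 7 did without it. The 3 were HK1-1, HK1-4 and LDHA. Over the whole array 3684 of 23815 probesets passed with it, against 7890 without it, so the loss of calls was array-wide. ALDOC-2 went to -0.08 (adjusted p = 0.524), GPI-1 to 0.15 (adjusted p = 0.0525), HK1-2 to -0.07 (adjusted p = 0.228) and HK1-3 to -0.14 (adjusted p = 0.217). In cohort 7a the covariate left 2 calls, the rises of HK1-1 (0.23, adjusted p = 0.00517) and GPI-2, and the falls of LDHA (-0.11, adjusted p = 0.222), HK1-4 (-0.35, adjusted p = 0.0694) and ALDOC-2 (-0.32, adjusted p = 0.0657) no longer passed. In cohort 7b, 9 passed with it, the further one being GPI-3 (0.42, adjusted p = 0.0153). Array-wide calls went from 7314 to 4583 in cohort 7a and from 9519 to 8624 in cohort 7b. Since drinkers and controls of cohort 7a did not overlap in the actin value, treatment and integrity cannot be told apart there. The 3′ minus 5′ value of GAPDH separated the groups less. In cohort 7a it ran from 1.09 to 1.51 in drinkers and from 0.96 to 1.15 in controls, which overlapped (difference 0.18, two-sided exact permutation p = 0.0283, unadjusted). The GAPDH control probeset near the 5′ end did separate them there, at 12.43 to 12.80 in drinkers and 12.88 to 12.915 in controls. The 3′ minus 5′ difference of GAPDH was -0.14 in cohort 7b and 0.08 in cohort 5.

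**Figure D4:**
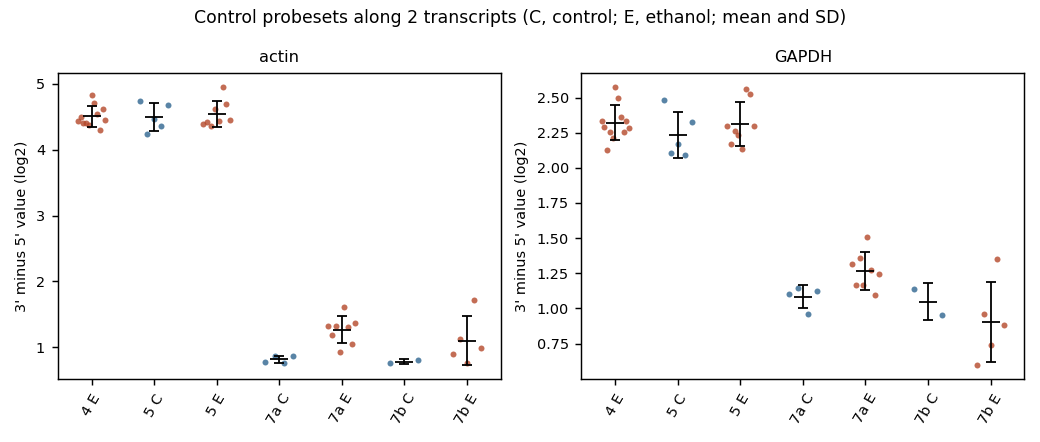
3′ minus 5′ value (y axis, log2) of the actin and the GAPDH control probesets, 1 point per animal, by cohort and treatment (x axis, C control, E ethanol), with mean and SD. Actin values lie between 4.24 and 4.95 in cohorts 4 and 5 and between 0.75 and 1.71 in cohorts 7a and 7b, and in cohort 7a every drinker is above every control.

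The other enzymes and regulators around glycolysis were counted by 8 lists, 1 probeset per gene, within cohorts. In all, 75 of 120 listed genes were measured, of which 14 rose, 15 fell and 46 did not pass, with a median difference of -0.04. Among all 13705 genes, 13.2% rose and 20% fell, with a median of -0.03. Of 14 other glycolytic enzymes, 5 rose and 2 fell. BPGM, which makes 2,3-bisphosphoglycerate, rose by 0.71 (SE 0.16, adjusted p = 0.000630), and its differences were 0.99 and 1.63 in cohorts 7a and 7b and 0.04 in cohort 5. The phosphofructokinase subunits PFKL (0.33) and PFKP (0.18) and aldolase A, ALDOA (0.21), rose as well. The glucokinase ADPGK, which uses ADP, fell by 0.22 and the muscle mutase PGAM2 by 0.17. PGAM2 lost its call with the actin covariate (adjusted p = 0.0956) and with processing batch besides cohort (adjusted p = 0.0677). It also lost it without cohort 7b (adjusted p = 0.159) and with each array centred on its median (adjusted p = 0.0830). ADPGK lost its call with the actin covariate (adjusted p = 0.184), and PFKP without cohort 7b (adjusted p = 0.0597). The count was 5 rises and 0 falls with the actin value as a covariate and 3 rises and 1 fall without cohort 7b. With that covariate, calls over the whole array went from 7890 to 3684 of 23815 probesets. The share of rises among them went from 35.5% to 46.2%. Counts of the other lists with the covariate are to be read against the same shift.

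**Figure D5:**
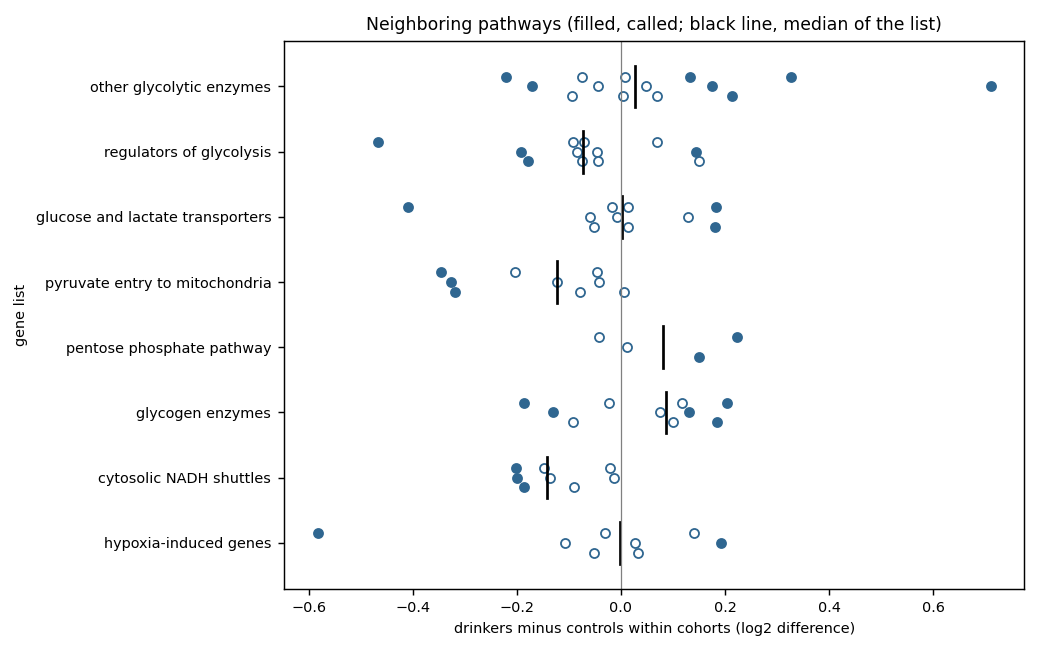
Log2 difference between drinkers and controls within cohorts (x axis) for each measured gene of the 8 lists (y axis), filled where the adjusted p was under 0.05, with the median of each list as a black line. The largest rise is BPGM at 0.71 and the largest fall FAM162A at -0.58.

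Among the steps that lead pyruvate into mitochondria, 3 of 9 genes fell and none rose. PDK2 (-0.33) and PDK1 (-0.32) are kinases that switch off pyruvate dehydrogenase, and DLD (-0.35) is a subunit of that enzyme. DLD was at -0.07 with the actin covariate (adjusted p = 0.613) and did not pass with batch (adjusted p = 0.104) or without cohort 7b (adjusted p = 0.105), where PDK1 did not pass either (adjusted p = 0.109). Of the enzymes that carry cytosolic NADH to mitochondria, 3 of 8 fell and none rose. These were MDH1 (-0.20, SE 0.04, adjusted p = 0.000432), GPD1 (-0.20) and GOT1 (-0.19), parts of the malate-aspartate and glycerol phosphate shuttles, and with batch, the actin covariate or without cohort 7b 1 of them passed. In the pentose phosphate pathway RPIA (0.22) and TALDO1 (0.15) rose, 2 of 4 measured, and both passed under each of these alternatives and with each array centred on its median.

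In glycogen metabolism 3 of 10 rose and 2 fell. The phosphorylase kinase subunits PHKB (0.20), PHKA2 (0.18) and PHKA1 (0.13) rose, and UGP2 (-0.19) and GYG1 (-0.13), which supply and prime glycogen synthesis, fell. GYG1 lost its call under each of these 4 alternatives (adjusted p 0.0868 to 0.480), which left 1 fall of 10, PHKA2 lost it with the actin covariate and without cohort 7b, and PHKA1 without cohort 7b. Among regulators 1 of 12 rose and 3 fell. The falls were TIGAR (-0.47), which slows glycolysis, EGLN2 (-0.19) and EGLN1 (-0.18), of which the EGLN genes encode oxygen-sensing prolyl hydroxylases, and the rise was PRKAB1 (0.14), a subunit of AMP-activated kinase. TIGAR did not pass with the actin covariate (adjusted p = 0.241), with batch (adjusted p = 0.121) or without cohort 7b, and with the covariate the list held 0 rises and 1 fall, EGLN2. Of 10 glucose and lactate transporters, the neuronal glucose transporter SLC2A3 (0.18) and the monocarboxylate transporter partner BSG (0.18) rose and the inositol transporter SLC2A13 (-0.41) fell, while another probeset of SLC2A3 fell. BSG lost its call with the actin covariate and with batch, and SLC2A3 and SLC2A13 lost theirs without cohort 7b. Of 8 genes induced by low oxygen, P4HA1 (0.19) rose and FAM162A (-0.58) fell, and P4HA1 was at 0.04 without cohort 7b (adjusted p = 0.658). In cohort 5 no gene of the 8 lists passed.

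The tissue label fit the signal of cortical genes, with SYT1 at a mean of 13.37, GAD1 at 12.07 and GFAP at 12.25. Since aldolase C belongs largely to astrocytes, its readings are given beside their markers. The mean of the 8 astrocyte markers ran from 10.86 to 10.88 in controls and from 11.12 to 11.21 in drinkers of cohort 7b, and from 11.12 to 11.29 and 11.13 to 11.33 in cohort 7a. Within cohorts 2 of the 8 markers rose, FGFR3 (0.33) and GFAP (0.27), and 0 fell, and in cohort 7b 4 rose and 1 fell. Their part in the results on glycolysis enzymes was not tested. Red cells carry much BPGM. Of 6 red cell markers listed, 3 were measured. Their mean in cohort 7b ran from 6.63 to 7.08 in the 2 controls and from 6.36 to 6.52 in drinkers. In cohort 7a it ran from 6.41 to 6.67 in controls and from 6.19 to 6.51 in drinkers. The part of red cells in the result on BPGM was not tested.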

How the data were processed

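Gene expression in medial PFC was measured on the Affymetrix Rhesus Macaque Genome Array, 1 array for each of 43 animals. The deposited values are log2 RMA values that the authors made with the affy package over all arrays, without batch adjustment. No genome build is given in the sources used here, so no coordinates are printed. Of 52865 probesets, 158 controls, 361 with several symbols and 27390 with none were left out, and 1141 dim ones were dropped, whose value lay under 3.5 on 80% or more of the arrays. Differences were fitted with limma 3.58.1 in R 4.3.3 over 23815 probesets, with Benjamini-Hochberg adjustment, by treatment alone, with cohort as a block, and with 1 mean per cohort and treatment. Calls use an adjusted p under 0.05. Fits were tested on simulated data. The 8 processing batches were recovered by setting the deposited values against the study's batch-adjusted table, of which no value is used. Every member is described, and each gene stands by its tested probeset of highest mean. Up to 6 called genes per pathway list, those with the largest differences, are named. The members and lists were chosen with earlier results of these data known. The number of arrays, above all of controls, limits the precision. No 2 arrays were identical (highest correlation 0.995).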

Additional observations from a re-analysis of the deposited data

Results flagged for a closer look

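In 75 groups of 4 to 10 arrays examined, 2 single arrays stood far from their group, where chance alone marks about 1 in 20 groups. In cohort 7a, control 25 had HK1-1 at 11.24, while the other 3 controls lay between 11.06 and 11.07. In the drinkers of cohort 7a, animal 32 had HK1-3 at 9.90, the highest of 8.

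The effect of treatment differed from that in cohort 5 by a test of the difference itself for 9 values. In cohort 7a these were GPI-2 (0.49), ALDOC-1 (-0.30) and ALDOC-2 (-0.61). In cohort 7b they were HK1-1 (0.49), HK1-4 (-0.69), GPI-1 (0.51), GPI-2 (0.80), GAPDH (0.36) and ENO2 (-0.66). Cohort 7b has 2 controls, and extraction kit and processing group differ between cohort 5 and cohorts 7a and 7b, so these cannot be told apart from cohort.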

How the results depend on the processing

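The number of called members, of 14, was recomputed under 31 settings. Without a cohort term, where 1 was called, it was 2 with arrays centred on their median and 2 with trend and robust moderation. It was 7 with cohort (the fit within cohorts repeated), 5 with processing group and 5 with processing batch as a block. It was 2 without cohort 4, and 1 to 2 leaving out single arrays (each control and each drinker of cohort 7b in turn). Within cohorts, where 7 were called, it was 3 at an adjusted p of 0.01, 3 with the actin covariate, and 3 to 9 leaving out single arrays, with 3 without control 37 of cohort 7b. It was 6 with batch besides cohort and, in fits added after seeing the data, 7 in cohorts 7a and 7b alone and 7 without the drinker whose actin value was farthest out. Calls over the whole array, of 23815, changed with the settings as well, also when single arrays were left out. Without a cohort term they were 3813, and 6841 with processing group and 5364 with processing batch as a block. Within cohorts they were 7890, and 4918 at an adjusted p of 0.01, 3684 with the actin covariate and 6325 with batch besides cohort. The member counts are to be read against these. In cohort 5 the member count was 0 throughout. In cohort 7a, where 4 were called, it was 2 with the actin covariate and 3 to 6 leaving out single arrays, with 3 without control 28. In cohort 7b, where 8 were called, it was 6 to 9 leaving out single arrays, with 6 without control 37. For the interactions, leaving out single controls gave 0 to 3 in cohort 7a, with 0 without control 28, and 4 to 7 in cohort 7b, with 4 without control 38. With the median of a gene's probesets, 1 gene (LDHA) passed without a cohort term, where 0 had, and 3 within cohorts, but GPI lost its call, ENO2 gained one, and HK1 turned from 0.15 to -0.16. No paired analysis was made, because the labels do not say which control was matched to which drinker. Of 2002 single values compared, 1904 kept their side of the threshold and any called direction, 50 lost and 47 gained a call, and 1 reversed. The gains include those of the fit with cohort as a block, which repeats the fit within cohorts. The causes were not tested. Signs of uncalled values were not counted. Many values, such as those of cohort 5, lay far from the threshold and could hardly change side. The share that kept its side is therefore no measure of how stable the calls were.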
